A study of Tetranychus urticae with 5 samples.

Results

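The probe set of a spider mite expression array includes 80 gene names that carry a mark for a pseudogene or for an incomplete gene model. They were found among the 19601 names of the non-control probes as those whose symbol starts with pABC, contains pseudogene or contains inc. The 80 models comprised 36 pABC names, 10 incomplete ABC transporters (1 ABCA, 7 ABCC and 2 ABCG), 28 incomplete carboxyl/cholinesterases (CCEinc), 5 incomplete glutathione S-transferases (TuGSTinc) and 1 name marked CYP-pseudogene. Each model had 3 probes. The array names do not define the marks, and no probe or gene sequence was in the sources used here, so the marks were taken as written.

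The mite was the two-spotted spider mite Tetranychus urticae, a plant-feeding arachnid and crop pest. Mites of 3 strains were compared as female deutonymphs, the last immature stage. LS-VL served as the reference. SR-VP was kept on 5000 mg/L and SR-TK on 1000 mg/L of spirodiclofen, an acaricide that inhibits acetyl-CoA carboxylase, and all strains were reared on kidney bean at 26 °C. Total RNA came from about 200 pooled mites per extract, so each array shows a pool and not a single animal. On 5 two-colour arrays, 3 of SR-VP and 2 of SR-TK, the resistant strain carried Cy5 and LS-VL carried Cy3. The dyes were never swapped, so a dye effect on a probe and a strain difference cannot be told apart. It is not stated if 1 LS-VL extract or several served as reference, and the resistant strains differ from LS-VL in origin as well as in selection.

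The 4 families are those in which xenobiotic handling is best known in arthropods. Cytochrome P450 monooxygenases (CYP) oxidise, carboxyl/cholinesterases (CCE) hydrolyse or bind, and glutathione S-transferases (GST) conjugate foreign compounds, while ATP-binding cassette (ABC) transporters move substrates across membranes. A pseudogene is a gene copy that has lost an intact reading frame, and it may still be transcribed. An incomplete model is one whose annotated sequence lacks part of the expected gene, either in the animal or only in the assembly. A probe on such a model can also bind RNA of a close intact paralogue, and the array cannot separate these sources.

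All arrays shared 1 slide and 1 scan, per the file headers. The share of spots flagged well above background ran from 54.1% to 75.7% in Cy5 and from 59% to 71.3% in Cy3, lowest in both channels on SR-VP replicate 3. No non-control spot was saturated. The stage and sex could not be checked against markers: among the symbols searched for yolk, moulting, silk and sperm genes, only 2 names holding the word chitin were found. Precision is limited by the number of arrays. The labels call the replicates biological without saying how they were kept apart. The p-values therefore set a mean ratio against the spread between these samples only. They do not cover further variation within a strain.

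Most pseudogene and incomplete models gave a signal. A name was counted in a strain when at least 1 of its probes carried the scanner software's well-above-background flag on at least 2 arrays. By this count 76 of 80 models (95%) were above background in SR-VP, 73 (91.2%) in SR-TK and 76 (95%) in LS-VL. The other 261 names with an ABC, CCE, GST or CYP symbol gave 95.8%, 95% and 94.6%, and all 19601 names gave 80%, 78.4% and 77.2%. The count for SR-TK needed both of its arrays, while that for LS-VL needed 2 of 5, so the counts are not equally strict.

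On single arrays the models above background in Cy5 numbered 76, 77 and 54 on SR-VP replicates 1 to 3, and 76 and 74 on the SR-TK arrays. In Cy3 they numbered 74, 75, 61, 72 and 72 in the same order. SR-VP replicate 3 was lowest for the models, for the other family names and for all names. The shares there were 67.5%, 82.4% and 64.2% in Cy5, and 76.2%, 88.1% and 67.3% in Cy3. On that array the models were thus further below the other family names than on the rest. Without SR-VP replicate 3 the count for SR-VP was still 76. Without SR-VP replicate 1 or replicate 2 it was 54, since both remaining arrays then had to pass.

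**Figure D1:**
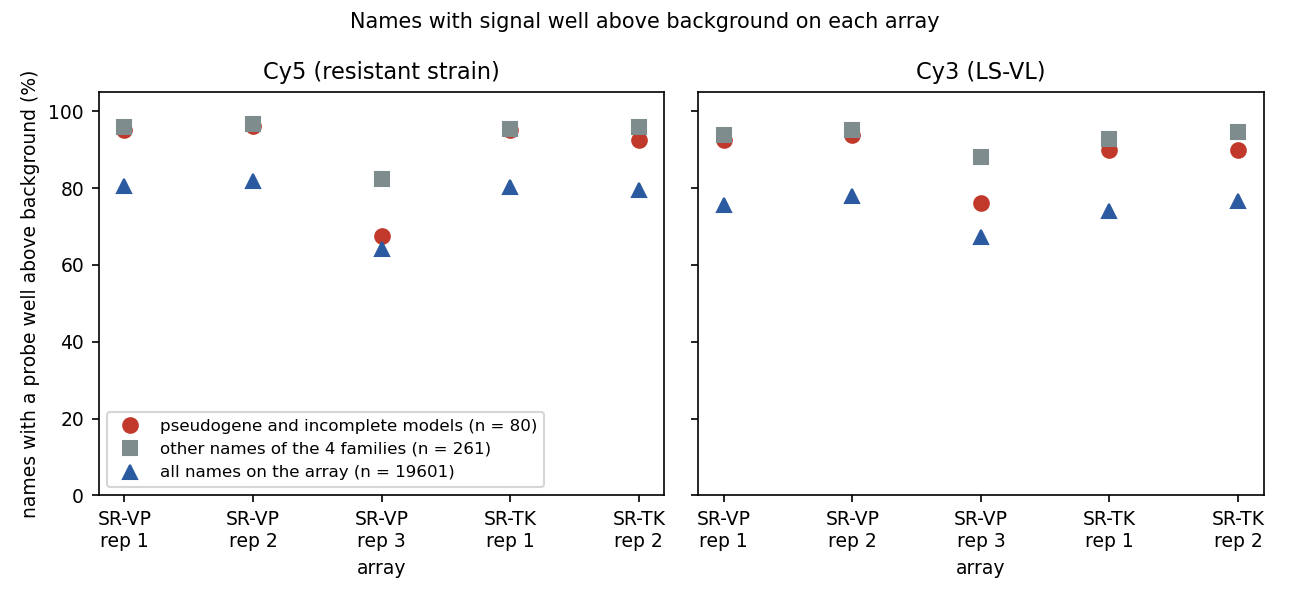
Percent of names with at least 1 probe well above background on each of the 5 arrays, in Cy5 (left) and Cy3 (right), for the 80 pseudogene and incomplete models, the 261 other names of the 4 families and all 19601 names. The models lie near the other family names on 4 arrays. On SR-VP replicate 3 in Cy5 they drop to 67.5%, the other family names to 82.4% and all names to 64.2%.

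The share was lower when every probe had to be detected. All 3 probes were above background on all 5 arrays in both channels for 25 models (31.2%), against 144 of the other family names (55.2%) and 39.8% of all names. The count was 11 of 36 for pABC and 5 of 10 for the incomplete ABC models, against 48 of 71 other ABC names. It was 9 of 28 for CCEinc against 25 of 59 other CCE names. No TuGSTinc model met it, against 24 of 27 other GST names. These shares are descriptions of the probe sets and were not tested.

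The few models without a signal were pABC-30 and TuGSTinc04, whose probes were below the flag on every array in both channels. ABCCinc-03 had 1 probe above background on 1 array, SR-VP replicate 2. These 3 were also the dimmest models, with mean log2 Cy3 signals of 6.11, 6.04 and 6.07 over the 5 arrays, where the offset added to every spot is 5.64 on the same scale. For ABCCinc-03 the neighbouring gene number is ABCCinc-02, with 2 of 3 probes bright.

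Another 6 models were above background by this count on some sides only. CCEinc-01, pABC-18, CCEinc-10 and CCEinc-28 were counted in SR-VP and LS-VL but not in SR-TK. The LS-VL count runs over all 5 arrays, so this does not set the strains side by side. On the 2 SR-TK arrays LS-VL was never above background for CCEinc-01 and CCEinc-28, while SR-TK was on replicate 1. For CCEinc-10 both channels were above it on replicate 2 only. For pABC-18 LS-VL was above it on both arrays and SR-TK on replicate 1. pABC-16 was counted in both resistant strains but not in LS-VL, and pABC-08 in SR-TK and LS-VL but not in SR-VP. For pABC-08 the LS-VL count came from the 2 SR-TK arrays. All 6 had mean log2 Cy3 signals between 6.24 and 6.44, close to those of the models without a signal. As a mean over its 2 arrays, SR-TK lay 1.10-fold above a bound for LS-VL for pABC-16 and 1.06-fold above it for CCEinc-01. For pABC-16 the log2 ratio on SR-TK replicate 2 was -0.01, so SR-TK was not higher on both arrays. For CCEinc-01 SR-TK was above background on 1 of 2 arrays. Neither value shows a difference. These folds use the mean of the 3 probes of a model, silent ones included. They set the bright side against the higher of the dim side's own signal and the lowest signal called above background on each array. The limma fit used the 1 kept probe of each model and no bound. It gave SR-TK over LS-VL as 1.12-fold for pABC-16 (adjusted p = 0.461) and 1.35-fold for CCEinc-01 (adjusted p = 0.490).

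The signal level was compared with that of the other names of each family as medians over names, without a test, since brightness depends on the probe as well as on the RNA. The median of the mean log2 Cy3 signal was 7.50 for the 80 models, 9.02 for the other family names and 7.67 for all names. The pABC names stood at 7.05 against 9.46 for other ABC names, a difference of -2.41. The TuGSTinc models stood at 6.86 against 11.28 for other GST names, a difference of -4.42. The incomplete ABC models (8.93) differed by -0.53 from other ABC names, and the CCEinc models (8.02) by -0.30 from other CCE names (8.31). The name CYP-pseudogene had 7.18 against 8.30 for the 104 other CYP names, which include 7 names ending in p (median 7.83) whose suffix the files do not define.

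The position of these medians was similar in the resistant strains. In Cy5 the pABC median was 7.01 in SR-VP and 6.99 in SR-TK, against 9.29 and 9.59 for other ABC names. The CCEinc median was 8.07 and 7.92, against 8.36 and 8.46 for other CCE names. The TuGSTinc median was 6.81 and 7.08, against 11.57 and 11.51. Among ABC subfamilies in LS-VL, the 36 other ABCC names stood at 9.44 and the 9 other ABCA names at 9.77, while the 17 other ABCG names stood at 7.19, near pABC. The subfamily of the pABC names is not given by the symbols.

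**Figure D2:**
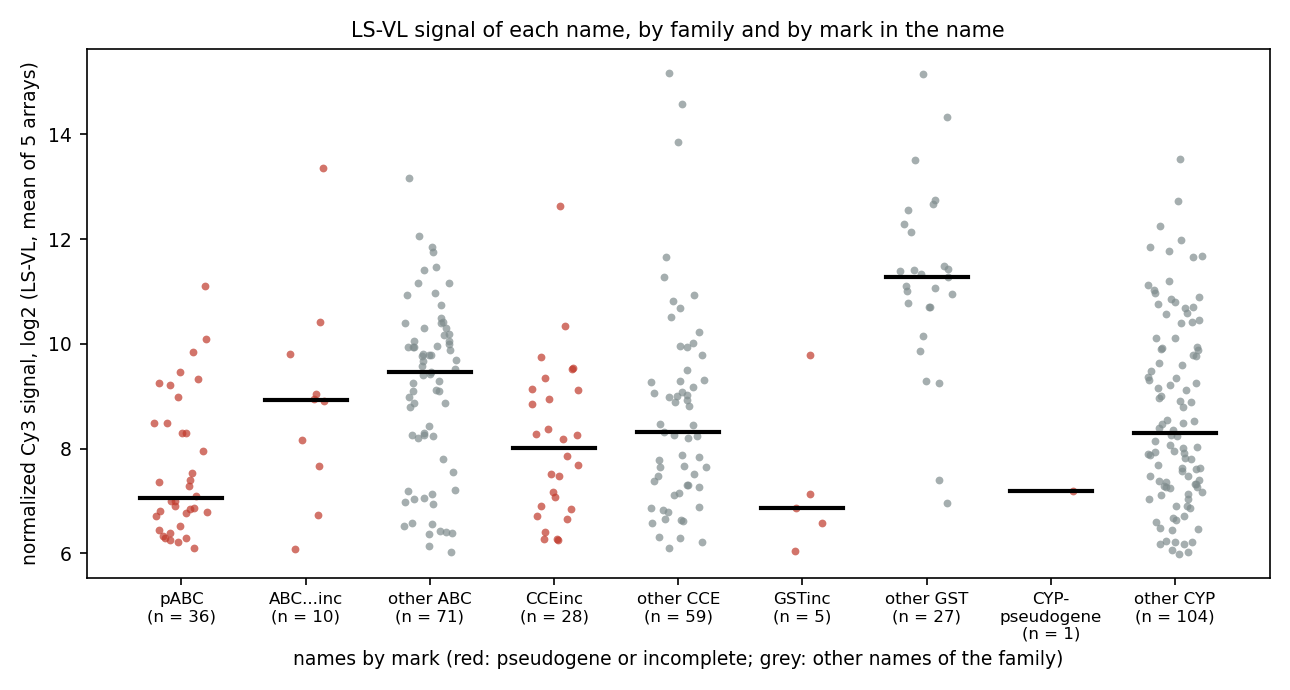
Mean log2 Cy3 signal (LS-VL, 5 arrays) of each name, with pseudogene and incomplete models in red, other names of the family in grey and the median of each set as a bar. The pABC bar (7.05) lies below the other ABC bar (9.46) and the GSTinc bar (6.86) below the other GST bar (11.28), while both CCE bars lie near 8.

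Within each set the spread was wide. The pABC names ranged from 6.11 to 11.11 and the CCEinc models from 6.24 to 12.64. The brightest model was ABCGinc-02, an incomplete member of the ABCG half-transporter subfamily. Its log2 Cy3 signals were 13.37, 13.26, 13.49, 13.47 and 13.16 on SR-VP replicates 1 to 3 and SR-TK replicates 1 and 2, and its Cy5 signals ran from 13.14 to 13.47. The log2 ratio of ABCGinc-02 over LS-VL was -0.03 ± 0.09 (SE, n = 3 arrays) in SR-VP and -0.05 ± 0.11 (SE, n = 2) in SR-TK. CCEinc-09 followed with a mean of 12.64 and pABC-13 with 11.11.

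pABC-13 also had one of the widest spreads of LS-VL signal between arrays, with log2 Cy3 values of 11.39, 11.46, 10.36, 11.44 and 10.90 (SD 0.48). Its Cy5 values of 11.22, 11.38, 10.07, 11.15 and 10.65 followed them, and the log2 ratios stayed between -0.29 and -0.09. Over the 80 models the median SD of the LS-VL signal between arrays was 0.14, against 0.17 for the other family names.

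The 3 probes of a model often differed in brightness. Over the 80 models the median range between probes was 0.78 on the log2 Cy3 scale, against 1.21 for the other family names and 0.61 for all names. The range was over 2 for 12 models (15%), against 25.7% of the other family names and 12.2% of all names. It was widest for ABCCinc-02 (6.26), TuGSTinc03 (5.83), CCEinc-06 (5.47) and pABC-03 (4.42), of which all but TuGSTinc03 were singled out after their values were seen. For ABCCinc-02 the probe means were 12.46, 8.21 and 6.19. For CCEinc-06 they were 11.54, 11.04 and 6.07, the last below the flag on every array.

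A pattern of 1 probe above background on every array in both channels and another on none was seen in 6 models (7.5%), against 4 of 261 other family names (1.53%) and 1.6% of all names. The models, named after their values were seen, were ABCCinc-02, ABCGinc-01, CCEinc-04, CCEinc-06, TuGSTinc03 and pABC-14. TuGSTinc03 had 2 bright probes at 11.36 and 11.92 and a silent one at 6.09. What sets the silent probes apart was not tested.

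**Figure D3:**
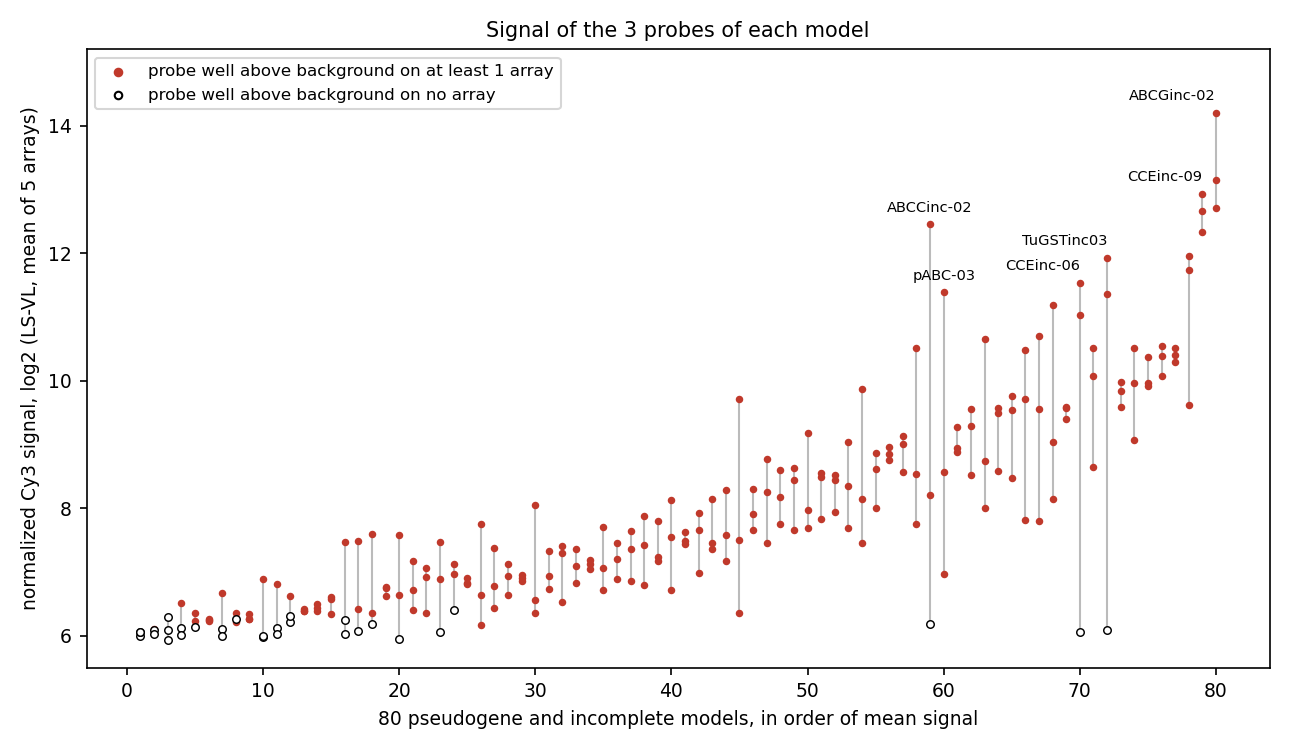
Mean log2 Cy3 signal of each of the 3 probes of the 80 models, ordered by the model's mean, with filled points for probes above background on at least 1 array and open points for the others. ABCCinc-02, TuGSTinc03 and CCEinc-06 join bright probes at 11 or more to an open probe near 6.

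Strain differences were then tested with limma over the whole array. Of the 80 models 77 had a probe bright enough to enter, meaning that 1 channel was flagged well above background on 2 or more arrays of 1 strain, and 204 of their 240 probes were kept. A model was called at an adjusted p under 0.05 with a log2 ratio of at least 1 in size. Both comparisons use the same 1 fit, and each ratio is against the LS-VL sample on the same array.

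Few models were called, and those called were carboxyl/cholinesterases and 1 glutathione S-transferase. For SR-VP the calls took in 1 of 28 CCEinc models (3.57%), against 8 of 56 other CCE names (14.3%). For SR-TK the shares were 5 of 28 (17.9%) and 9 of 56 (16.1%). Of the 4 TuGSTinc models tested, 1 passed in each strain, beside 2 of 27 (7.41%) and 3 of 27 (11.1%) other GST names. These family shares were not tested against each other. In SR-VP 2 of 77 models (2.6%) were higher and 0 lower, where 1.95% of all 15861 names were called in either direction, 1.12% higher and 0.832% lower. In SR-TK 4 were higher and 2 lower (7.79% of 77), where 2.28% of all names were called, 1.39% higher and 0.895% lower. When arrays were centred on their medians in place of loess, the SR-TK counts were 8 higher and 1 lower. When SR-TK was fitted on its own 2 arrays alone, none was called, with adjusted p-values of 0.054 to 0.157 for the 6. At an unadjusted p under 0.05 there were 33 of 77 models (42.9%) in SR-VP and 26 (33.8%) in SR-TK, where 26.9% and 25.2% of all names passed. The other family names passed at 44.4% and 38.4%, above the models in both strains. Of the 250 other family names tested, 27 were called in SR-VP (23 higher, 4 lower) and 25 in SR-TK (19 higher, 6 lower).

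By the adjusted p alone, 12 models passed in SR-VP, 9 higher and 3 lower (15.6%), where 11.3% of all names passed, 5.85% higher and 5.45% lower. In SR-TK 11 passed, 7 higher and 4 lower (14.3%), where 8.34% of all names passed, 4.73% higher and 3.61% lower. The other family names passed at 27.6% in SR-VP and 20% in SR-TK, above the models in both strains. The median log2 ratio over the 77 models was -0.0041 in SR-VP and 0.04 in SR-TK, against 0.00033 and 0.02 over all names tested. The log2 ratio had the same sign on all 5 arrays for 27 models (35.1%), 15 above and 12 below 0, where 32% of all names did. This share was 42.9% for CCEinc, below the 53.6% of other CCE names, and 31.4% for pABC, above the 20.3% of other ABC names. It was 44.8% for the other family names together.

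Carboxyl/cholinesterases are a large esterase family whose members include detoxifying enzymes and the target of organophosphates, acetylcholinesterase. The function of the single CCEinc models is not given by the files. CCEinc-15 (Tetur17g00800) was the model with the highest mean log2 ratio over the 5 arrays, though CCEinc-01 or TuGSTinc03 was higher on 3 of them. Its log2 ratios over LS-VL were 1.10, 1.59 and 1.20 on SR-VP replicates 1 to 3, and 1.39 and 1.34 on SR-TK replicates 1 and 2. All arrays lay above 1, and the 2 strains overlapped. The fitted difference was 1.30 ± 0.10 (SE, 2.46-fold, limma adjusted p = 0.0016) in SR-VP and 1.36 ± 0.13 (2.57-fold, adjusted p = 0.0037) in SR-TK. All 3 probes rose, with means of 0.97, 1.64 and 1.29 in SR-VP and 1.05, 1.67 and 1.38 in SR-TK.

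CCEinc-14 (Tetur17g00780) lies 2 gene numbers before CCEinc-15 on the same scaffold, number 17. Its log2 ratios were 0.84, 0.90 and 0.75 in SR-VP and 1.16 and 0.86 in SR-TK. All arrays lay above 0 and the strains overlapped. The fitted difference was 0.83 ± 0.08 (limma adjusted p = 0.0030) in SR-VP, below the fold threshold, and 1.01 ± 0.10 (2.02-fold, adjusted p = 0.0042) in SR-TK, just past it. With the median of its probes in place of the mean, or without SR-TK replicate 1, CCEinc-14 fell short of the threshold in SR-TK at 1.00 and 0.86, and with median centring it passed in SR-VP at 1.06.

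CCEinc-23 (Tetur35g00250) gave log2 ratios of 0.58, 1.03 and 0.79 in SR-VP and 1.13 and 1.01 in SR-TK, above 0 on every array. The difference was 0.80 ± 0.10 (limma adjusted p = 0.0059) in SR-VP and 1.07 ± 0.12 (2.1-fold, adjusted p = 0.0059) in SR-TK. Its 3 probes lay close together in SR-TK, at 1.05, 1.13 and 1.03. The next gene number holds CCEinc-24, with 0.46 (adjusted p = 0.0408) and 0.34 (adjusted p = 0.160), followed by TuCCE-55, a complete model with -0.03 and 0.09, neither of which passed (adjusted p = 0.905 and 0.748).

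CCEinc-26 (Tetur207g00040) stood next to a called complete gene, TuCCE-60. The log2 ratios of CCEinc-26 were 0.31, 0.88, 0.61, 0.77 and 0.62 over the 5 arrays in the order above. Those of TuCCE-60 were 1.21, 1.34, 1.32, 1.43 and 1.28, higher than CCEinc-26 on every array. CCEinc-26 passed the adjusted p but not the fold threshold in both strains (0.60, adjusted p = 0.0250, and 0.70, adjusted p = 0.0359, limma), while TuCCE-60 was called in both (1.29, adjusted p = 0.000518, and 1.35, adjusted p = 0.0012). CCEinc-26 was singled out for this neighbour after its values were seen.

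CCEinc-07 and CCEinc-09 were the models called lower, both in SR-TK. CCEinc-09 (Tetur16g02750) was the second brightest model, at log2 Cy3 signals of 12.41 to 12.81. Its log2 ratios were -0.32, -0.26 and -0.40 in SR-VP and -0.81 and -1.51 in SR-TK, so both SR-TK arrays lay below all SR-VP arrays. The fitted difference was -1.16 ± 0.16 (limma adjusted p = 0.0121) in SR-TK and -0.33 ± 0.13 (adjusted p = 0.178) in SR-VP. Without SR-TK replicate 2 the SR-TK value was -0.81, and with median centring -0.56 (adjusted p = 0.0604), both short of the call. CCEinc-10, CCEinc-11 and CCEinc-12 follow it on scaffold 16, within 4 gene numbers, with SR-TK differences of -0.13, -0.21 and -0.72, and CCEinc-12 passed by adjusted p alone (0.0417).

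CCEinc-07 (Tetur11g06880) had log2 ratios of -0.78, -0.76 and 0.06 in SR-VP and -1.12 and -1.58 in SR-TK. The value above 0 came from SR-VP replicate 3, the array with the fewest spots above background. The difference was -1.35 ± 0.23 (limma adjusted p = 0.0226) in SR-TK and -0.49 ± 0.19 (adjusted p = 0.159) in SR-VP. Without SR-VP replicate 3 the SR-VP value was -0.77 (adjusted p = 0.0447). The SR-TK call was lost without SR-TK replicate 1 (-1.58, adjusted p = 0.0541) or replicate 2 (-1.12, adjusted p = 0.120). TuCCE-33, the complete model on the preceding gene number, gave 0.0024 and -0.33, and neither passed (adjusted p = 0.993 and 0.222).

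Glutathione S-transferases conjugate glutathione to electrophilic compounds. TuGSTinc03 (Tetur03g09520) was the called model of this family. Its log2 ratios from its 2 bright probes were 0.91, 1.33 and 1.38 in SR-VP and 1.65 and 0.79 in SR-TK. All arrays lay above 0, and the highest and lowest values were both from SR-TK. The difference was 1.21 ± 0.18 (2.31-fold, limma adjusted p = 0.0109) in SR-VP and 1.22 ± 0.22 (2.33-fold, adjusted p = 0.0253) in SR-TK. The bright probes gave 1.23 and 1.18 in SR-VP, and the silent probe -0.15. With the silent probe included the difference fell short of the fold threshold, at 0.75 in SR-VP and 0.72 in SR-TK (adjusted p = 0.0647).

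The call of TuGSTinc03 also depended on single arrays. In SR-VP its difference was 1.15 (adjusted p = 0.0752) without SR-VP replicate 2 and 1.12 (adjusted p = 0.0695) without replicate 3, close in size to that over all arrays. In SR-TK the adjusted p was 0.0538 and 0.054 without the same arrays, which enter through the shared spread, and 0.088 without SR-TK replicate 1, where the difference was 0.79. TuGSTd06 (Tetur03g09560), a complete GST name 4 gene numbers further on scaffold 3, singled out after its values were seen, gave 1.19, 1.11, 1.26, 1.54 and 0.89 on the 5 arrays. It was called in both strains, at 1.19 (adjusted p = 0.0038) and 1.21 (adjusted p = 0.0090), values that overlap those of TuGSTinc03. The other TuGSTinc models tested, TuGSTinc01, TuGSTinc05 and TuGSTinc06, ranged from -0.23 to 0.35 over both strains, and none passed.

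None of the 44 tested pABC and incomplete ABC models was called in either strain by limma, where 1.95% and 2.28% of all names were, so that a count of 0 is near the background. At an unadjusted p under 0.05 there were 15 (34.1%) in SR-VP and 13 (29.5%) in SR-TK, beside the 26.9% and 25.2% of all names, and the largest difference was 0.61 in SR-VP and 0.93 in SR-TK in size. None of the 69 other ABC names tested was called either, with 16 and 12 at an unadjusted p under 0.05.

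pABC-06 (Tetur03g03720) was the ABC model with the lowest mean log2 ratio over the 5 arrays. Its log2 ratios were -0.41, -0.63 and -0.73 in SR-VP and -0.71 and -1.15 in SR-TK, below 0 on every array with the strains overlapping. The difference was -0.59 ± 0.11 (limma adjusted p = 0.0230) in SR-VP and -0.93 ± 0.13 (adjusted p = 0.0132) in SR-TK, both short of the fold threshold. The SR-TK value passed it at -1.06 with a smaller offset of 10, at -1.11 with the scanner software's processed signals and at -1.15 without SR-TK replicate 1. The SR-VP value without SR-VP replicate 3 was -0.52 (adjusted p = 0.0955).

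pABC-08 (Tetur03g09190) passed by adjusted p alone in SR-TK at 0.82 ± 0.12 (limma adjusted p = 0.0153). It rested on 1 probe, which was above background in both channels of both SR-TK arrays and in neither channel of the SR-VP arrays, so it has no usable ratio in SR-VP. pABC-33 was among the 5 lowest models, at -0.20, -0.53, -0.76, -0.16 and -0.87, and passed in neither strain (adjusted p = 0.112 and 0.175). CCEinc-12, also among the 5 lowest, gave -0.58, -0.44, -0.26, -0.43 and -0.999. CCEinc-01, among the 5 highest, gave 0.30, 1.80, 0.61, 0.66 and 0.20 from 1 probe and was not called (adjusted p = 0.101 in SR-VP and 0.490 in SR-TK). It was above background in neither channel on SR-VP replicate 3 and SR-TK replicate 2. On SR-TK replicate 1 its LS-VL signal was not above background either. The ratios of CCEinc-01 on these arrays are therefore weak.

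The name CYP-pseudogene (Tetur01g05300), described as the only model of its mark, gave log2 ratios of 0.24, 0.25, -0.20, 0.17 and 0.42, with SR-VP replicate 3 the array below 0. Its differences were 0.10 (limma adjusted p = 0.635) and 0.30 (adjusted p = 0.247). The name CYP 2 gene numbers before it (Tetur01g05280) gave 0.79, 0.95, 0.64, 1.68 and 0.58, above CYP-pseudogene on every array, and was called in SR-TK at 1.13 (adjusted p = 0.0443).

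**Figure D4:**
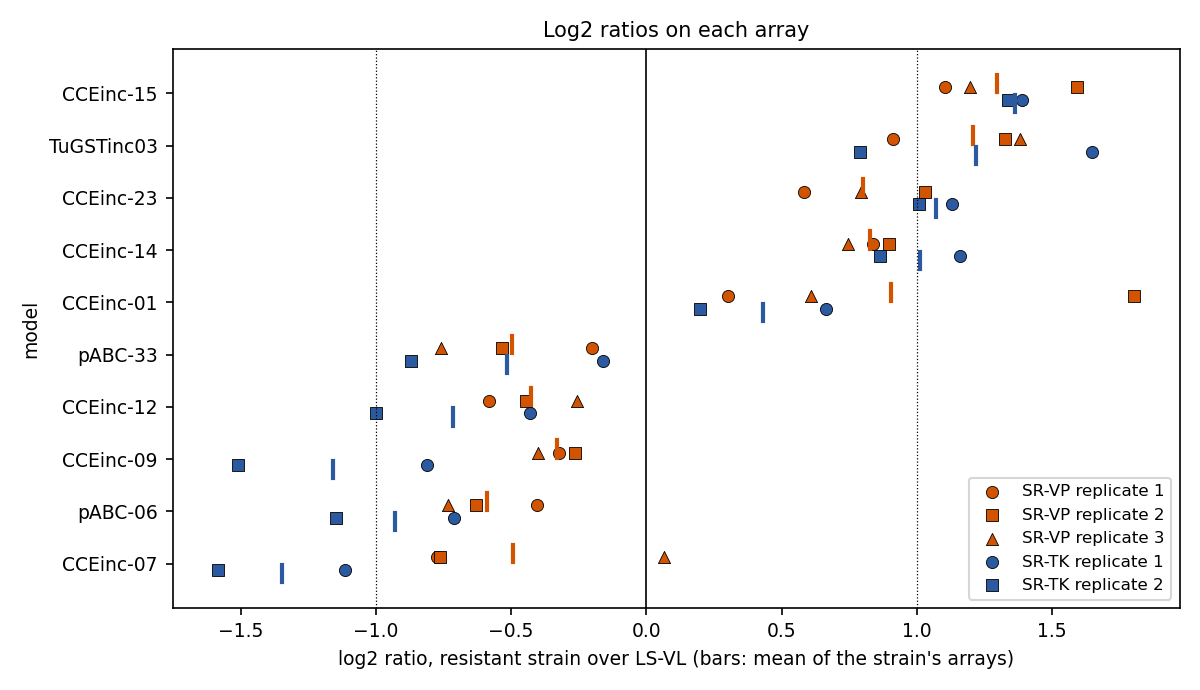
Log2 ratio over LS-VL on each array for the 6 called models and the 5 highest and 5 lowest models (10 models in all), SR-VP in orange and SR-TK in blue, with bars at the strain means and dotted lines at the fold threshold. CCEinc-15 lies above 1 on all 5 arrays, while CCEinc-07 has 1 SR-VP array above 0 and both SR-TK arrays below -1.

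No model was called in the difference between the 2 strains, where 0.214% of all names were. At an unadjusted p under 0.05 in limma there were 5 of 77 (CCEinc-04, CCEinc-07, CCEinc-09, pABC-08 and pABC-22, CCEinc-04 and pABC-22 being named after their values were seen), where 9.12% of all names passed. One of these, pABC-08, has no usable ratio in SR-VP. The SR-TK minus SR-VP difference was -0.83 ± 0.21 (adjusted p = 0.281) for CCEinc-09 and -0.86 ± 0.30 (adjusted p = 0.453) for CCEinc-07. For CCEinc-09 it was -0.48 (adjusted p = 0.280) without SR-TK replicate 2 and -1.18 (adjusted p = 0.115) without SR-TK replicate 1. So the calls of these models in SR-TK and not in SR-VP do not show that the strains differ. For CCEinc-15 and TuGSTinc03 the differences were 0.07 and 0.01.

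Probes of one model mostly gave the same direction. Of the 60 models with all 3 probes kept, the probe means shared a sign in 37 (61.7%) in SR-VP and 43 (71.7%) in SR-TK. The other family names gave 61% and 61.8%, and all names 61.1% and 65%. On single arrays the share ranged from 58.3% (SR-VP replicate 1) to 71.7% (SR-VP replicate 2).

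Wide disagreement between probes was less common. The range between probe means was over 1 in 3 of the 60 models in each strain (5%), against 26 and 24 of the 228 other family names with 3 kept probes and 2.35% and 2.68% of all names. The median range was 0.40 for CCEinc and 0.21 for pABC in SR-VP, and 0.33 and 0.18 in SR-TK. The median over all names was 0.17 and 0.18. It was 0.20 and 0.25 for other ABC names, and 0.23 and 0.29 for other CCE names.

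CCEinc-18 had the widest range. One probe gave -1.88, -1.53, -2.27, -0.42 and -0.56 over the 5 arrays, while the others gave 0.85, 1.02, 0.92, 1.12 and 0.92, and 1.44, 1.25, 0.53, 1.02 and 0.65. The probes were thus on opposite sides of 0 on every array. The averaged values were 0.04 ± 0.11 in SR-VP (limma adjusted p = 0.873) and 0.46 ± 0.14 in SR-TK (adjusted p = 0.113), which describes none of the 3 probes in SR-VP.

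CCEinc-13 showed the same kind of split, with probe means of -0.62, -0.20 and 0.88 in SR-VP and -0.83, -0.18 and 1.21 in SR-TK. The probe with the highest mean was above 0 on all 5 arrays, from 0.62 to 1.23, while the model's mean was 0.02 and 0.07. CCEinc-27 gave -0.63, -0.50 and 0.22 in SR-VP and -0.21, -0.28 and 0.62 in SR-TK. ABCCinc-07, of the multidrug-resistance protein subfamily, gave -0.82, -0.23 and -0.10, and then -0.49, 0.59 and 0.18. For CCEinc-12 1 probe stood apart in SR-VP at -1.13, with the others at -0.15 and near 0, while in SR-TK all 3 lay between -0.77 and -0.69.

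**Figure D5:**
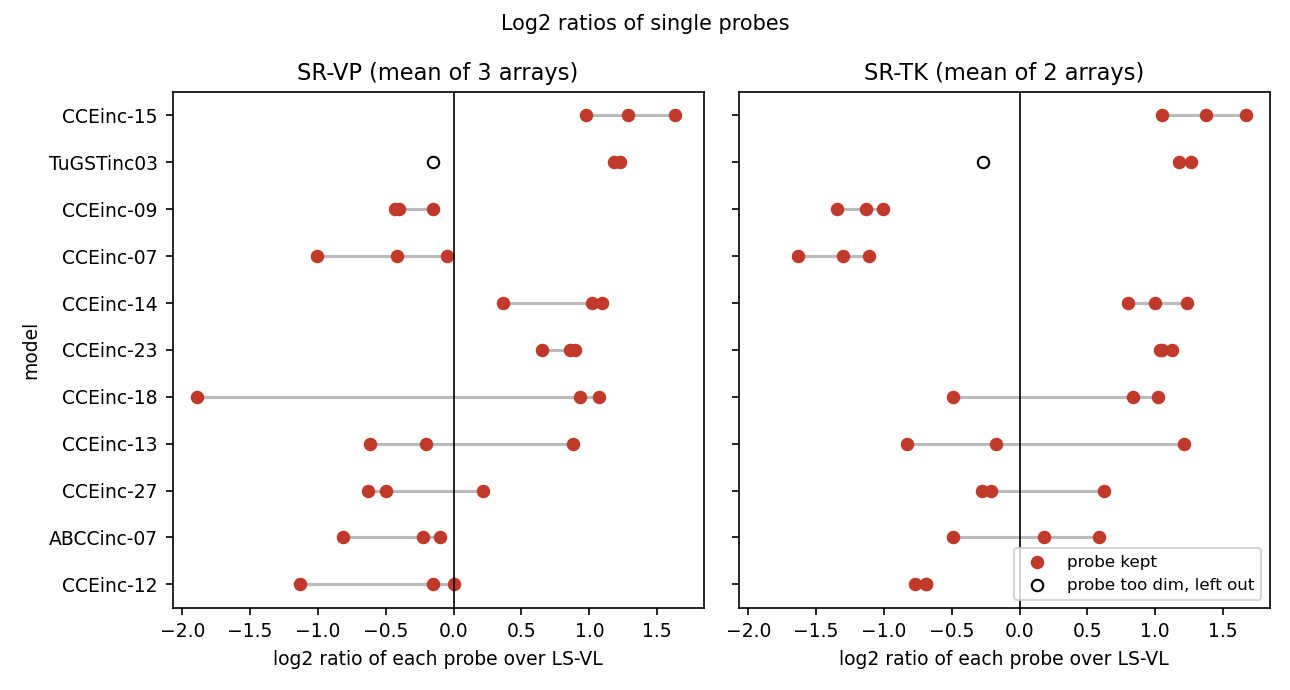
Mean log2 ratio over LS-VL of each probe in SR-VP (left, 3 arrays) and SR-TK (right, 2 arrays) for the 6 called models and the 5 models with the widest range between probes, with open points for probes left out as too dim. The probes of CCEinc-18 and CCEinc-13 lie on both sides of 0 in both strains, while the kept probes of the called models share a sign.

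Across the 77 models, which are not independent replicates, the log2 ratios of 2 SR-VP arrays had a Pearson correlation of 0.64 to 0.80 and a Spearman correlation of 0.52 to 0.74. Those of the SR-TK arrays had 0.54 and 0.48. The Pearson values of the other family names were 0.91 to 0.92 in SR-VP and 0.82 in SR-TK, and those of all names 0.66 to 0.81 and 0.59. By Spearman the gap was smaller, with 0.738 to 0.815 and 0.552 for the other family names. All names gave Spearman values of 0.408 to 0.725 and 0.468. The arrays of a pair share the probes and the reference strain.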

How the data were processed

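The deposited files are scanner output, 1 per array, and hold, per the file headers, the intensity of every spot (median foreground and local background), processed intensities and flags for outliers, saturation and signal well above background. The software was Agilent Feature Extraction 10.5, per the submitters' processing notes. The fold-change lists were not used here, since their gene numbering does not match the symbol-bearing names.

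From the intensities, limma 3.58.1 in R 4.3.3 applied normexp (offset 50), loess within arrays (control spots at weight 0) and Aquantile between arrays; 874 outlier-flagged spot values were left out. Probes of a name were averaged, names starting with Rep were left out, and log2 ratios of Cy5 over Cy3 were fitted on all 5 arrays with 1 coefficient per strain (residual df 3, prior df 3.07) and Benjamini-Hochberg adjustment over 15861 names. The script was tested on simulated data.

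The models and lists were chosen with earlier results of these data known. Models were named by rule if called, or if among the 5 highest and 5 lowest in mean log2 ratio, the 5 with the widest range between probes, the 3 brightest and 3 dimmest, or those above background on some sides only; neighbours were complete or incomplete names within 2 gene numbers. The alternatives tried were other background, normalization, filter and averaging steps, and leaving out each array. Of the 80 names, 0 matched the RefSeq gene table.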

Additional observations from a re-analysis of the deposited data

Results flagged for a closer look

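In LS-VL, whose signal was read on all 5 arrays, 1 array stood far from the others for 3 of the 24 models that the naming rule picked: its gap to the nearest was over 0.71 of the range. Chance gives this in about 1 of 20 sets of 5 values that were not selected. The models were picked partly by these same signals and flags, so that rate does not apply to them. The count of 3 was not tested. For CCEinc-01 the log2 Cy3 signal was 6.01 on SR-TK replicate 2 against 6.30 to 6.38. For ABCCinc-03 it was 6.22 on SR-VP replicate 3 against 6.02 to 6.05, and for pABC-18 it was 6.00 on SR-VP replicate 3 against 6.50 to 6.60. All 3 lie near the offset of 5.64.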

How the results depend on the processing

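The count of models called in SR-VP (2, both higher) was 1 without the filter on dim probes, 3 with median centring, with processed signals and with only probes above background throughout, and 1 to 2 when an array was left out. In SR-TK the 6 calls were 0 with only that strain's arrays (higher and lower both 0), and median centring gave 8 higher and 1 lower; leaving out an array gave 3 to 5 higher and 0 to 2 lower, 0 lower without SR-TK replicate 2. Over all names, 310 calls in SR-VP became 483 with offset 10 and 655 with processed signals, and 362 in SR-TK became 753 with median centring, 565 with offset 10, 806 with processed signals and 70 with its own arrays. Other family names called in SR-TK (25) were 45 with median centring and 5 with its own arrays. For SR-TK minus SR-VP, 34 calls became 77, 53 and 19 with median centring, offset 10 and processed signals, 11 with only probes above background throughout, and 0 to 13 without an array; the 2 other family names became 1 with those probes and 0 to 1 without an array. Replicate numbers 1 and 2 occur in both strains, and deviations of same-numbered arrays correlated at 0.373 and 0.157; with 2 pairs the numbers were not taken to pair the samples. With a replicate block 2 names were called, 0 of them models and 0 other family names.

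The difference between strains reversed for CCEinc-15 (0.07) to -0.030 without SR-VP replicate 1, over a range up to 0.21 when an array was left out. For TuGSTinc03 (0.01) it was -0.031 without the filter, -0.14 without SR-VP replicate 1 and -0.42 without SR-TK replicate 1, in a range of -0.42 to 0.44. Level differences from the family kept their sign: pABC gave -2.87 and -3.38 with offset 10 and processed signals, incomplete ABC -1.10 with processed signals, CCEinc -0.22, -0.43, -0.49 and TuGSTinc -4.15, -5.22, -6.25 with median centring, offset 10 and processed signals, and when an array was left out -0.38 to -0.28 for CCEinc and -4.48 to -4.24 for TuGSTinc, -0.38 and -4.24 being those without SR-VP replicate 2. The causes were not tested. Mean foreground signals and a slide block were not run, as the files used hold no such column and 1 slide.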

Other observations

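Of the 80 models, 67 carry a gene number that also occurs on the array as a plain name without a symbol. If both names stood for the same gene, their log2 ratios on an array could be close, though probes of 1 name can also disagree. Over the 51 pairs in which both were tested, the Pearson correlation across pairs was -0.06, -0.05 and 0.08 on SR-VP replicates 1 to 3 and 0.10 and 0.11 on the SR-TK arrays, as a description of pairs that share the arrays. The same number was therefore not read as the same gene, and the neighbours given above were taken among names with a symbol.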
